A study of Mus musculus with 18 samples.

Results

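The SR splicing factors of nuclear speckles were followed here through the mRNA level of 10 Srsf genes, Srsf1, Srsf2, Srsf3, Srsf4, Srsf5, Srsf6, Srsf7, Srsf9, Srsf10, and Srsf11. They were chosen by name as members of the family, by a rule that uses no measured value. Earlier results of these data were known when the choice was made. The count table lists 29875 genes, of which 13844 had enough reads to be tested, and all 10 Srsf genes were among those tested. The RNA came from mouse dendritic cells (DCs) grown with GM-CSF from bone marrow of wild-type C57Bl6/J mice aged 8 to 12 weeks. All cells, the controls included, had been matured for 24 hours with lipopolysaccharide (LPS) at 200 ng/ml. The cells were then placed in migration chambers in bovine collagen of 1.7, 2.6, 3.5, or 4.4 mg/ml with a gradient of the chemokine CCL19, or in the same chambers without collagen (suspension), and RNA was taken 5 hours after the gradient was set up. There were 3 libraries in each of 4 collagen groups and 2 suspension groups, 18 in all. For the suspension groups, the CCL19 state in the sample title contradicts that in the library name, so they are called here by title, and no effect of CCL19 is given a direction.

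SR proteins bind pre-mRNA through an RNA recognition motif and hold a tail rich in arginine and serine, the RS domain, through which they recruit the splicing machinery to exons. Kinases of the SRPK, CLK, and DYRK families phosphorylate the RS domain, which moves SR proteins into the nucleus and releases them from speckles, the membraneless bodies in which they are stored. Many Srsf genes limit their own level by splicing in a poison exon or keeping an intron, so that the transcript is degraded by nonsense-mediated decay. In DCs, as in other immune cells, alternative splicing changes surface receptors and signaling proteins as the cells mature.

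The part with the most arginine-serine pairs is shown here as it is encoded. The kinases act on the RS domain, and the number of such pairs sets the members apart from each other. The part was found by counting pairs, and the bounds of the RS domain were not located. Each line is the stretch of 90 bases with the most Arg-Ser or Ser-Arg pairs in the longest coding transcript of the annotation, 5′ to 3′, with the codons of such pairs in capitals. Srsf6, Srsf7, and Srsf11 are printed because their mRNA level differed from suspension in at least 1 comparison, and Srsf9 because it holds the fewest pairs.
Srsf6 codons 189 to 218: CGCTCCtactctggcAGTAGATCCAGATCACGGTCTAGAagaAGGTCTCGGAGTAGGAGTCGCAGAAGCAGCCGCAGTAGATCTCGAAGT
Srsf7 codons 127 to 156: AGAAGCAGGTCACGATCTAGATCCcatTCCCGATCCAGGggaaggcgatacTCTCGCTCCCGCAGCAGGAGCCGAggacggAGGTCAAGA
Srsf11 codons 276 to 305: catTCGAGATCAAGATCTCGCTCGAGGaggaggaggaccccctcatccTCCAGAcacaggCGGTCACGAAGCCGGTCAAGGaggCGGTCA
Srsf9 codons 172 to 201: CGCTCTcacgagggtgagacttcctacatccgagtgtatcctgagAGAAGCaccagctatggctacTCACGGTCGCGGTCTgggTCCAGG
Srsf6 encoded 74 such pairs in 339 residues, Srsf7 encoded 55 in 238, and Srsf11 encoded 41 in 511. Srsf4 had the highest number, 106 pairs in 491 residues, and Srsf2 the highest density, 23.5 per 100 residues. Srsf9 had 9 pairs in 222 residues, or 4.1 per 100. By identity over the shorter protein, Srsf1 and Srsf9 were the closest pair (72.1%), followed by Srsf4 and Srsf6 (69.0%) and Srsf5 and Srsf6 (67.0%). Srsf3 and Srsf7 shared 62.2% of residues, the same share as Srsf4 and Srsf5. Srsf11 shared 33.3% with Srsf6.

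Positions are given for the GRCm38 build. Srsf6 (ENSMUSG00000016921) is at chr2:162931528-162937121 on the plus strand, Srsf7 (ENSMUSG00000024097) at chr17:80200080-80207307 on the minus strand, and Srsf11 (ENSMUSG00000055436) at chr3:158010473-158036639 on the minus strand. The annotation of Srsf11 holds 19 transcripts, of which 5 are coding, 3 are marked for nonsense-mediated decay, and 11 retain an intron. Srsf6 has 4 transcripts, 1 of them marked for decay and 1 with a retained intron. The counts are per gene, so coding, retained-intron, and decay transcripts are summed and a change of splice form cannot be seen. The sources used here do not state whether counting used the strand. Exons of Srsf4 overlap an antisense transcript, Gm12992, over 43.0% of their length, and exons of Srsf2 overlap those of Mettl23 (15.6%) and Mfsd11 (9.7%), so levels of Srsf2 and Srsf4 could include reads of those genes. No other gene in the annotation matched Srsf6, Srsf9, or Srsf11 at 95% identity over 50 bases, and near copies of Srsf3, Srsf5, Srsf7, and Srsf10 held at most 9 counts in any library. Gm12992 held at most 19 counts in a library, Mettl23 at most 318, and Mfsd11 at most 1097.

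Total counts per library ranged from 13062944 to 28059839 (median 17344954), and no pair of libraries was identical. Each Srsf gene had at least 118 counts in every library, so counting error was small beside the spread between replicates, for which the biological coefficient of variation was 49.0% over all genes. The library names of each replicate number carry a common date and lane, so a replicate is also a batch that holds each group once. Without a replicate term, p-values measure the spread between these 3 batches, with shifts shared by a whole batch included. With the replicate as a block, such shifts were taken out of the spread, and the coefficient was 33.1%. The 10 DC markers were all detected, with a summed level of 18443 to 55351 CPM (counts scaled to a common library size) in suspension and 25005 to 60194 CPM in collagen. Of these, 0 were called higher and 1 lower in collagen, beside 7.73% and 12.3% of all tested genes. With the replicate block, 2 were higher and 1 lower, beside 15.5% and 19.2%. At 4.4 mg/ml, 1 was higher and 0 lower, beside 6.54% and 8.3%, and with the block 3 higher and 1 lower, beside 15.7% and 16.1%. The 10 eosinophil markers summed to 121 to 1385 CPM in suspension (median 362) and 14.8 to 171 CPM in collagen (median 44.4), and all 9 that could be tested were lower in collagen. Neutrophil markers summed to 636 to 9766 CPM in suspension and 1046 to 5174 CPM in collagen, with 3 of 10 lower in collagen. Macrophage markers summed to 215 to 740 and 225 to 1395 CPM, mast cell and basophil markers to 27.2 to 244 and 30.9 to 265 CPM, and lymphocyte markers to 0.85 to 11.6 and 0.84 to 6.46 CPM, with no marker of these lists called (with the replicate block, 4 macrophage markers were higher and 2 mast cell and basophil markers and 1 lymphocyte marker lower). Calls in collagen for the other marker lists stand beside the same shares of all tested genes, 7.73% and 12.3%, or 15.5% and 19.2% with the block. The part of other cells in the results for the Srsf genes was not tested, and in bulk RNA fewer cells of a type cannot be told apart from less RNA per cell.

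To compare the Srsf genes with each other, CPM was divided by the length of all exons of the gene. In suspension, Srsf2, a factor with a single RNA recognition motif that acts in splicing and in release of paused polymerase, had the highest mean, 29.4 CPM per kb. It was followed by Srsf9 (18.8), Srsf6 (15.1), Srsf1 (13), Srsf7 (12.4), Srsf5 (10.8), Srsf11 (6.93), Srsf3 (4.86), Srsf4 (4.18), and Srsf10 (2.23 CPM per kb). In collagen, Srsf2 was again highest (35.9 CPM per kb) and Srsf10 again lowest (3.46), while Srsf6 (26.9) stood ahead of Srsf9 (21.8). No neighbors in either order were separated, since the ranges of their libraries overlapped. The order depends on the exon length used, which counts exons of all transcripts.

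**Figure D1:**
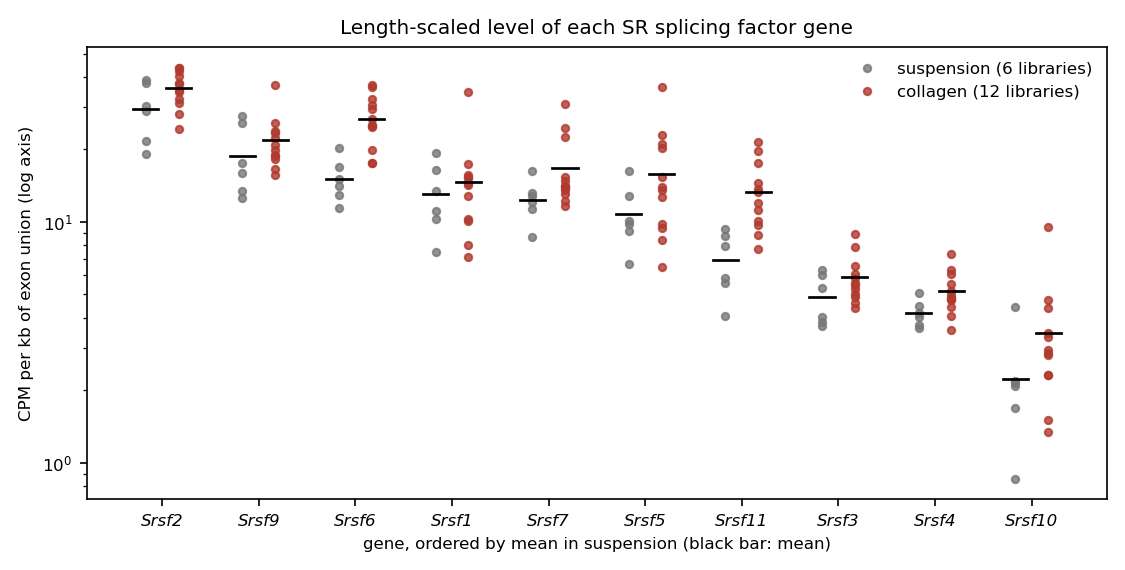
Length-scaled level of each Srsf gene, in CPM per kb of exon on a log axis, with a point for each of 6 suspension libraries (gray) and 12 collagen libraries (red) and a bar at each mean. Srsf2 had the highest mean and Srsf10 the lowest in both sets, and the ranges of neighboring genes overlapped.

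Collagen was first compared with suspension over all densities, to ask whether cells in a matrix differed from cells without one. Srsf6 and Srsf11 were higher in collagen, by 0.83 and 0.92 on the log2 scale, and the other 8 Srsf genes had positive values that did not pass the threshold. The threshold was a false discovery rate (FDR) of 0.1 over all 13844 genes in edgeR's quasi-likelihood test, with p-values adjusted by the Benjamini-Hochberg method. At this threshold, 2 of 10 Srsf genes were called higher and 0 lower, beside 7.73% of all tested genes called higher. The median log2 fold change of the 10 genes was 0.36, and that of all tested genes was 0.0027, of which 50.2% were positive.

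**Figure D2:**
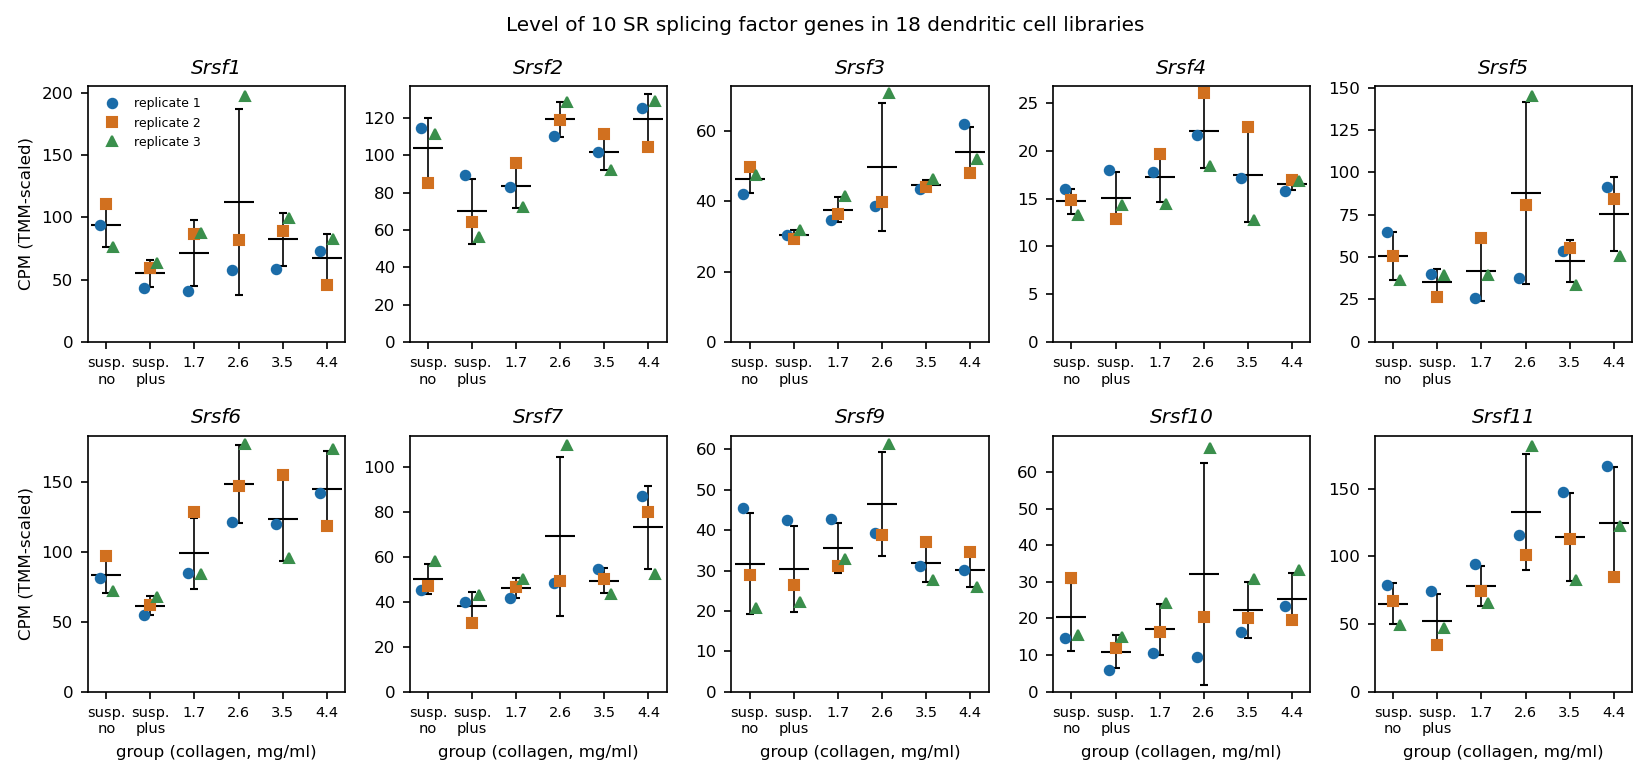
Level of each Srsf gene in CPM in suspension titled without CCL19 (susp. no), suspension titled plus CCL19 (susp. plus), and 4 collagen densities in mg/ml, with 1 point per library (color and shape give the replicate) and the mean and SD of 3 libraries. Srsf6 lay between 55.1 and 97.3 CPM in suspension and between 119 and 174 CPM at 4.4 mg/ml, and replicate 3 at 2.6 mg/ml was the highest library for 8 of the 10 genes.

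Srsf6 belongs with Srsf4 and Srsf5 to a group of SR proteins with a pair of RNA recognition motifs and long RS domains, and it promotes inclusion of exons in many transcripts. In suspension, Srsf6 was at 55.1, 62.1, and 68.1 CPM in the libraries titled plus CCL19 and at 81.5, 97.3, and 72.3 CPM in those titled without CCL19. In collagen, it was at 84.9, 128, and 84.2 CPM at 1.7 mg/ml, 122, 147, and 177 CPM at 2.6 mg/ml, 120, 155, and 95.6 CPM at 3.5 mg/ml, and 142, 119, and 174 CPM at 4.4 mg/ml. The collagen libraries overlapped the suspension libraries only through 3 of them, both low libraries at 1.7 mg/ml and replicate 3 at 3.5 mg/ml, which lay below the highest suspension library. The means were 72.7 ± 15 CPM (SD, n = 6) in suspension and 129 ± 31.4 CPM (n = 12) in collagen, a log2 fold change of 0.83 (SE 0.17) with an adjusted p of 0.0046 in edgeR. Within replicates 1, 2, and 3, the log2 difference was 0.78, 0.81, and 0.84. Srsf6 was called in all 12 alternative fits at this FDR.

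Srsf4 and Srsf5 had smaller differences that did not pass the test. Srsf4 ranged from 12.9 to 18 CPM in suspension (median 14.6) and from 12.7 to 26.1 CPM in collagen (median 17.5). Its log2 fold change was 0.29 (SE 0.17, adjusted p = 0.284 in edgeR). Srsf5, whose transcript is known to respond to growth signals, ranged from 26.7 to 64.7 CPM in suspension (median 39.8) and from 25.8 to 145 CPM in collagen (median 54.7), so that the suspension range lay within that of collagen. Its log2 fold change was 0.51 (SE 0.27, adjusted p = 0.228).

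Srsf11 encodes an SR-like protein with a single RNA recognition motif, known for its part in the splicing of neuronal microexons. In suspension, it was at 74.2, 34.4, and 47.0 CPM in the libraries titled plus CCL19 and at 79.0, 67.1, and 49.4 CPM in those titled without CCL19. In collagen, it was at 94.5, 74.6, and 65.5 CPM at 1.7 mg/ml, 116, 101, and 182 CPM at 2.6 mg/ml, 148, 113, and 82.4 CPM at 3.5 mg/ml, and 167, 84.9, and 122 CPM at 4.4 mg/ml. Replicates 2 and 3 at 1.7 mg/ml fell within the suspension range and the other 10 collagen libraries lay above it. The means were 58.5 ± 17.5 CPM (SD, n = 6) and 112 ± 36.7 CPM (SD, n = 12), a log2 fold change of 0.92 (SE 0.22) with an adjusted p of 0.012 in edgeR. Within replicates 1, 2, and 3, the log2 difference was 0.74, 0.94, and 1.12. The call was lost without replicate 2 (log2 0.94, adjusted p = 0.133) and without replicate 3 (log2 0.82, adjusted p = 0.102).

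Srsf3, at 164 residues the shortest of the 10 proteins, and Srsf7 link splicing to export, as adaptors for the mRNA export receptor NXF1. Srsf7 ranged from 30.7 to 57.9 CPM in suspension (median 44.3) and from 41.5 to 110 CPM in collagen (median 50.1), and its log2 fold change was 0.42 (SE 0.19, adjusted p = 0.17 in edgeR). Srsf3 ranged from 29.2 to 49.8 CPM (median 36.9) and from 34.7 to 70.7 CPM (median 43.7), with a log2 fold change of 0.29 (SE 0.15, adjusted p = 0.231). In both genes the lowest collagen library was above the lowest suspension library and the groups overlapped. Within each of 3 replicates the mean of the collagen libraries was above that of the suspension libraries, by 0.25 to 0.53 for Srsf7 and by 0.13 to 0.41 for Srsf3 on the log2 scale.

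Srsf1, the founding member of the family, which binds purine-rich exonic enhancers, had no difference that could be detected. It ranged from 43.0 to 111 CPM in suspension (median 69.9) and from 40.8 to 198 CPM in collagen (median 82.3), with a log2 fold change of 0.19 (95% interval -0.31 to 0.68). Its value was positive in only 1 of 3 replicates. Srsf9, its closest relative by sequence, ranged from 20.8 to 45.4 CPM (median 27.7) and from 25.8 to 61.2 CPM (median 33.7), with a log2 fold change of 0.19 (95% interval -0.20 to 0.59). Both signs turned without replicate 3, to -0.12 for Srsf1 and -0.0090 for Srsf9. Srsf1 also turned with offsets for GC content and length, to -0.080.

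Srsf2 ranged from 56.4 to 114 CPM in suspension (median 87.5) and from 72.1 to 129 CPM in collagen (median 107), with a log2 fold change of 0.30 (SE 0.15, adjusted p = 0.188 in edgeR). Srsf10, which acts as a splicing repressor when dephosphorylated, ranged from 6.03 to 31.0 CPM in suspension (median 14.8) and from 9.36 to 66.7 CPM in collagen (median 20.3). Its log2 fold change was 0.66 (SE 0.36, adjusted p = 0.24), larger than that of Srsf2 with a wider error. No Srsf gene had all 12 collagen libraries above all 6 suspension libraries, a pattern that 0.506% of tested genes showed.

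With the replicate as a block, 4 of 10 Srsf genes were called higher in collagen, beside 15.5% of all tested genes. The added genes were Srsf7 (log2 0.42, SE 0.18, adjusted p = 0.0926) and Srsf10 (log2 0.59, SE 0.26, adjusted p = 0.0991), both close to the threshold. Srsf6 had a log2 fold change of 0.83 (adjusted p = 0.00085) and Srsf11 of 0.94 (adjusted p = 0.00098) in that fit. When offsets for GC content and exon length were added to the block, Srsf2, Srsf4, Srsf6, Srsf10, and Srsf11 were called, and Srsf7 was not. The share of all tested genes called with these offsets is not given here.

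The summed level of the 10 genes was 357 to 597 CPM in suspension (median 470) and 476 to 1157 CPM in collagen (median 641). The 3 suspension libraries titled plus CCL19 were the lowest of all, at 357, 401, and 439 CPM, and the 3 titled without CCL19, at 501 to 597 CPM, lay within the range of collagen at 1.7 mg/ml (476 to 597 CPM). The library with the highest sum was replicate 3 at 2.6 mg/ml, which also had the highest total count.

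The densest matrix, 4.4 mg/ml, was compared with suspension in the same fit. All comparisons of a single density use the same 6 suspension libraries, so they are not independent of each other and their values are set side by side. At 4.4 mg/ml, 3 of 10 Srsf genes were higher, Srsf6, Srsf11, and Srsf7, beside 6.54% of tested genes. Srsf6 was at 142, 119, and 174 CPM, each above the highest suspension library (97.3 CPM), with a log2 fold change of 1.01 (SE 0.22, adjusted p = 0.00958 in edgeR). Srsf11 was at 167, 84.9, and 122 CPM, each above the highest suspension library (79.0 CPM), with a log2 fold change of 1.10 (SE 0.29, adjusted p = 0.0256). These were the only Srsf genes whose groups did not overlap, 2 of 10, beside 4.93% of tested genes.

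Srsf7 was at 87.2, 79.9, and 52.3 CPM at 4.4 mg/ml. In suspension, it was at 40.0, 30.7, and 43.2 CPM in the libraries titled plus CCL19 and at 45.4, 46.8, and 57.9 CPM in those titled without CCL19. Replicates 1 and 2 at 4.4 mg/ml were above all suspension libraries, and replicate 3 was below the replicate 3 library titled without CCL19. The log2 fold change was 0.75 (SE 0.26, adjusted p = 0.0854), with within-replicate differences of 1.03, 1.07, and 0.065. Its call was lost without replicate 1 (adjusted p = 0.283), without replicate 2 (0.528), without the 4.4 mg/ml library of replicate 2 (0.207), without the filter on low counts (0.266), and with GC and length offsets (0.123). The values for Srsf6 and Srsf11 without replicate 2 were 1.20 (adjusted p = 0.109) and 1.23 (0.189), and Srsf11 also lost its call without replicate 3 (1.00, adjusted p = 0.149).

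The other 7 Srsf genes did not pass the test at 4.4 mg/ml. The log2 fold changes were 0.83 for Srsf5 (adjusted p = 0.162), 0.77 for Srsf10 (0.34), 0.52 for Srsf3 (0.134), and 0.49 for Srsf2 (0.135). They were near zero for Srsf4 (0.15, 95% interval -0.31 to 0.62), Srsf9 (-0.04, -0.60 to 0.52), and Srsf1 (-0.10, -0.80 to 0.61), and each of these intervals holds the value of Srsf2. With the replicate as a block, 7 of 10 Srsf genes were called higher, beside 15.7% of tested genes, and Srsf1, Srsf4, and Srsf9 were those not called. Srsf2, Srsf3, Srsf5, and Srsf10 were called in that fit with adjusted p of 0.0662, 0.0596, 0.098, and 0.0983 and almost the same log2 fold changes. Without replicate 3 at 2.6 mg/ml, 5 of 10 were called at 4.4 mg/ml, Srsf3 (adjusted p = 0.0552) and Srsf5 (0.0925) being added. The share of all tested genes called without that library is not given here.

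**Figure D3:**
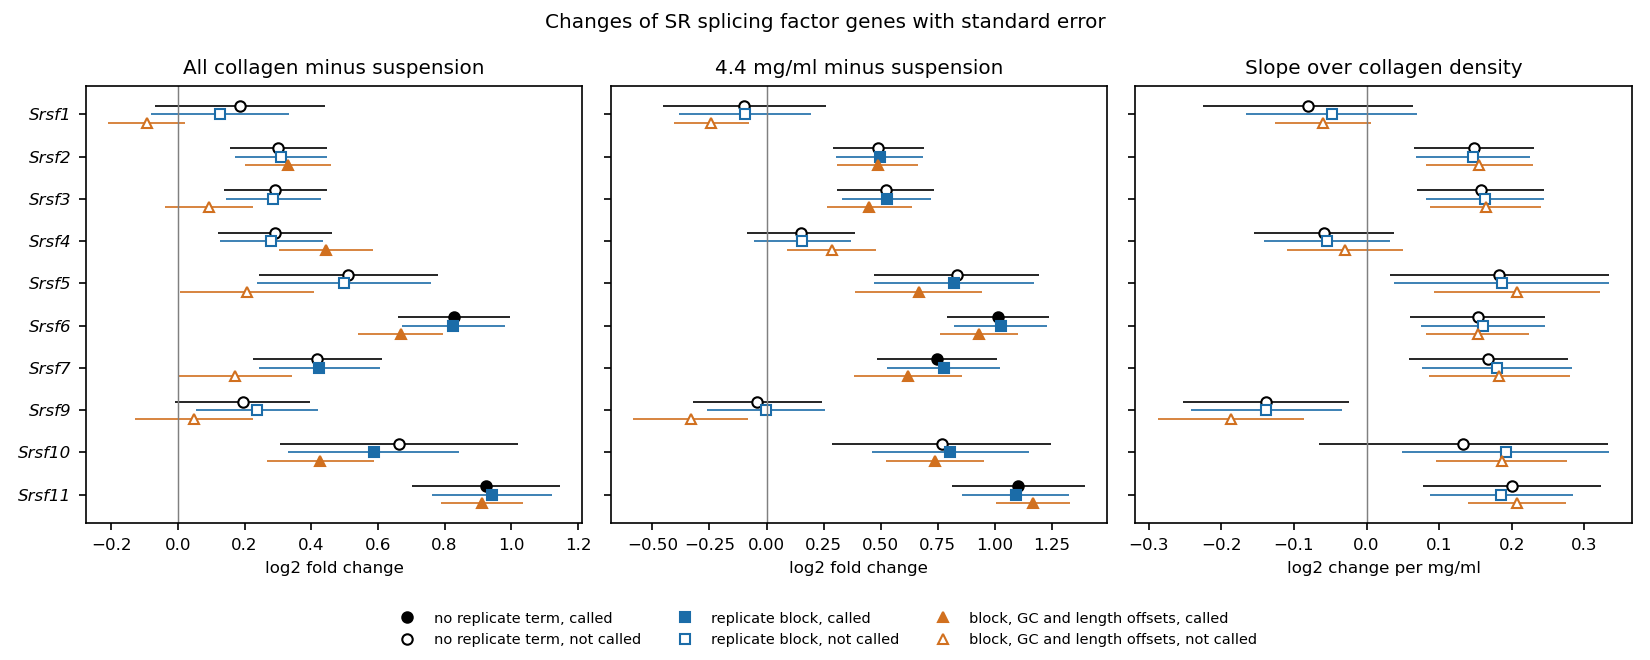
Log2 fold change of each Srsf gene for all collagen minus suspension (left) and 4.4 mg/ml minus suspension (middle), and slope per mg/ml over the 4 collagen densities (right), each with its SE, in 3 edgeR fits given by color and shape, with filled symbols for an FDR under 0.1. Srsf6 and Srsf11 are filled in every fit on the left and in the middle, and no symbol is filled on the right.

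At 1.7 mg/ml, 0 of 10 Srsf genes were called by edgeR, beside 0.0361% of tested genes. With the replicate block 0 were called, beside 1.54% of tested genes, and DESeq2 also called 0. At an unadjusted p under 0.05 there were 0 genes in edgeR, 1 with the block, and 1 in DESeq2. Srsf6 (log2 0.46, SE 0.23, adjusted p = 0.622) and Srsf11 (0.43, SE 0.30, adjusted p = 0.792) had the highest values and Srsf2 the lowest (-0.03). Srsf levels in the least dense gel could not be separated from suspension with 3 replicates.

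At 2.6 mg/ml, Srsf6 (log2 1.05, SE 0.22, adjusted p = 0.0222) and Srsf11 (1.19, SE 0.29, adjusted p = 0.0386) were called higher in edgeR, 2 of 10 beside 4.32% of tested genes. With the block, 7 of 10 were called, beside 11.9% of tested genes, and Srsf1, Srsf3, and Srsf10 were those not called. In replicate 3, Srsf5 was at 145 CPM against 37.7 and 80.9 CPM in replicates 1 and 2, and Srsf11 at 182 CPM against 116 and 101 CPM. Without that library and without the block, 0 of 10 were called at 2.6 mg/ml (3 at an unadjusted p under 0.05), with log2 fold changes of 0.93 for Srsf6 (adjusted p = 0.141) and 0.93 for Srsf11 (0.246). Leaving out replicate 2 or replicate 3 in all groups, without the block, also left 0 called.

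At 3.5 mg/ml, the same 2 genes were called, Srsf6 (log2 0.78, SE 0.22, adjusted p = 0.0792) and Srsf11 (0.97, SE 0.29, adjusted p = 0.0912), beside 1.96% of tested genes. The block gave the same 2 genes with adjusted p of 0.0222 and 0.0137, beside 8.06% of tested genes. The other 8 genes had log2 fold changes between 0.04 (Srsf9) and 0.58 (Srsf10) without the block. Leaving out any 1 of the 3 replicates ended both calls, with adjusted p of 0.192 to 0.495 for Srsf6 and 0.253 to 0.492 for Srsf11.

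The trend over the 4 densities asked whether the level followed the amount of collagen. For the 10 Srsf genes, slopes ran from -0.14 (Srsf9) to 0.20 (Srsf11) log2 units per mg/ml, with 7 positive and a median of 0.15. Over all tested genes, 50.5% of slopes were positive and the median was 0.0027. edgeR called 0 of 10 (lowest adjusted p 0.795, 0 at an unadjusted p under 0.05), beside 0.00722% of tested genes. The block also called 0 (lowest adjusted p 0.386), beside 1.45% of tested genes, and DESeq2 called 0 with 2 at an unadjusted p under 0.05. For Srsf6 the slope was 0.15 (95% interval -0.03 to 0.34), and for Srsf11 it was 0.20 (-0.04 to 0.44), so that a rise with density was not detectable with these libraries. The summed level of the 10 genes had medians of 512, 704, 645, and 739 CPM from the lowest to the highest density.

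Between the suspension groups, titled plus minus titled without CCL19, log2 fold changes ran from -0.89 (Srsf10) to 0.04 (Srsf4), with 9 of 10 Srsf genes negative. Over all tested genes, 49.8% were positive in this comparison. edgeR called 0 of 10, beside 0% of tested genes, and with the block it also called 0, beside 0%. At an unadjusted p under 0.05 there were 2 Srsf genes in edgeR, Srsf2 (-0.57, SE 0.24, adjusted p = 0.762) and Srsf3 (-0.60, SE 0.25, adjusted p = 0.762), 4 with the block, and 2 in DESeq2, which called 0. Srsf3 was at 30.4, 29.2, and 31.9 CPM in the libraries titled plus CCL19 and at 42.0, 49.8, and 47.4 CPM in those titled without CCL19. The groups did not overlap in Srsf3, nor in Srsf1, Srsf6, and Srsf7, which makes 4 of 10 beside 13.6% of tested genes whose suspension groups did not overlap in either direction. The mean of both suspension groups was used as the reference above.

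The region upstream of the genes was examined for Srsf6, Srsf7, and Srsf11, because these were called at 4.4 mg/ml. The lines give up to 250 bases before the RefSeq start of each gene (build GRCm38.p6), 5′ to 3′ on the strand of the gene and ending before the annotated gene, with motif letters in capitals on either strand.
Srsf6 upstream, chr2:162931258-162931507, plus strand: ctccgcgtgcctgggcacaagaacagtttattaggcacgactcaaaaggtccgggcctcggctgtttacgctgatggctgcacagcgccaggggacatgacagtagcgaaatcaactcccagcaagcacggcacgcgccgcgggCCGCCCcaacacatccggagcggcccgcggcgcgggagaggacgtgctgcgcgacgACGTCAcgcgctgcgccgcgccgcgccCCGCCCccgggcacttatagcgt
Srsf7 upstream, chr17:80207308-80207555, minus strand: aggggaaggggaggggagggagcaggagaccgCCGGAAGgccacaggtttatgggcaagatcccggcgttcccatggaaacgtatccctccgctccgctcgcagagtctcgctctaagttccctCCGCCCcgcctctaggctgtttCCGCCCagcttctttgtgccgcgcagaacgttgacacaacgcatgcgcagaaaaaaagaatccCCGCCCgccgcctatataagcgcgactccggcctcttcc
Srsf11 upstream, chr3:158036640-158036856, minus strand: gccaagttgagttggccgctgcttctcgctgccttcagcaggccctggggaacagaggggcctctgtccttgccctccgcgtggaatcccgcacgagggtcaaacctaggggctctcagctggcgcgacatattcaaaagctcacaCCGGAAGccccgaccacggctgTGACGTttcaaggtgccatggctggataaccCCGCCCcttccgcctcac
The letters searched were the GC box GGGCGG, the CCAAT box CCAAT, the half-site TGACGT of the cyclic AMP response element, the ETS motif CCGGAAG, the TATA box TATAAA, and the E-box CACGTG, in windows of 250 bases. The GC box was present in the windows of 9 of the 10 Srsf genes and in 32.7% of 32851 windows. The Srsf10 window, before its RefSeq start, lies wholly within the annotated gene. Its GC box and CCAAT matches are counted here but are not upstream of that gene. The response element half-site was present upstream of Srsf3, Srsf6, and Srsf11 and in 6.47% of windows, and the ETS motif upstream of Srsf4, Srsf5, Srsf7, and Srsf11 and in 6.91%. CCAAT letters were found in 3 genes (33.8% of windows), TATAAA in 2 (12.4%), and CACGTG in 0 (6.02%). The TATAAA match of Srsf3 lies in the part of its window within the annotated gene and is not upstream of it. The GC content of the Srsf windows ran from 56.8% (Srsf5) to 77.2% (Srsf4). The shares are over all windows and were not matched for GC content, so they do not make a motif a trait of the family. These are matches of letters and no binding was measured.

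The Srsf genes were then set beside the genes that work with them, in lists given by function. Of 19 tested SR-related proteins, which carry RS domains but act as coactivators or structural parts of speckles, 5 were higher and 1 was lower in collagen, with a median log2 fold change of 0.46, beside 7.73% of all tested genes higher and 12.3% lower. The highest were Luc7l3, a relative of a yeast U1 snRNP protein (21.2 ± 6.85 CPM in suspension, SD, n = 6, and 62.5 ± 32.5 CPM in collagen, n = 12; log2 1.53, adjusted p = 0.0044 in edgeR), Bclaf1 (1.01, 0.0257), Pnn (0.89, 0.073), and Luc7l (0.53, 0.0402). The gene that was lower, named here outside that order, was Scaf1, which fell by 0.50 (adjusted p = 0.0652). The core proteins of speckles had no detectable difference, with log2 fold changes of 0.04 for Srrm2 (adjusted p = 0.941), 0.38 for Son (0.207), and 0.09 for Srrm1 (0.755). With the block, 8 were higher and 1 lower in collagen, beside 15.5% and 19.2% of tested genes. At 4.4 mg/ml, 1 of the 19 was higher and 1 lower, beside 6.54% and 8.3% of tested genes, and with the block 7 were higher and 1 lower, beside 15.7% and 16.1%. Along the density trend 0 were called in either fit, beside 0.00722% of tested genes without the block and 1.45% with it.

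Of 15 tested kinases, phosphatases, and import factors of SR proteins, 4 were higher and 1 was lower in collagen (median log2 0.31), beside the same 7.73% and 12.3% of tested genes. With the block 6 were higher and 1 was lower, Clk1 (0.75, adjusted p = 0.0759) and Dyrk1a (0.54, 0.0317) being added. In that fit 15.5% of all tested genes were higher and 19.2% lower. Dyrk3, the kinase that dissolves speckles and other condensates when active, was at 2.06 ± 0.97 CPM in suspension (SD, n = 6) and 6.93 ± 3.60 CPM in collagen (SD, n = 12), a log2 fold change of 1.66 (adjusted p = 0.00304 in edgeR). Ppp1cb, a catalytic subunit of protein phosphatase 1, rose by 1.00 (adjusted p = 0.0212), and Prpf4b, a kinase of the spliceosome, rose by 0.96 (0.0397). In the CLK family, Clk4 rose by 0.90 (adjusted p = 0.0522) and Clk2 fell by 0.61 (0.0624), while without the block Clk1 had 0.76 (0.138) and Clk3 0.17 (0.676). The SRPK genes, whose products phosphorylate SR proteins in the cytoplasm, had log2 fold changes of -0.10 for Srpk1 (0.691) and -0.01 for Srpk2 (0.978). At 4.4 mg/ml, Dyrk3 was higher by 2.56 (adjusted p = 0.00154) and Clk2 fell by 1.32 (0.0173). The list had 3 genes higher and 1 lower at that density, beside 6.54% and 8.3% of tested genes. With the block it had 6 and 1, beside 15.7% and 16.1%. Along the density trend the list had 0 calls without the block, beside 0.00722% of tested genes. With the block it had 1 in each direction, Dyrk3 (0.59 per mg/ml, adjusted p = 0.0623) and Clk2 (-0.46, 0.0999). The block called 1.45% of tested genes along the trend, in either direction.

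**Figure D4:**
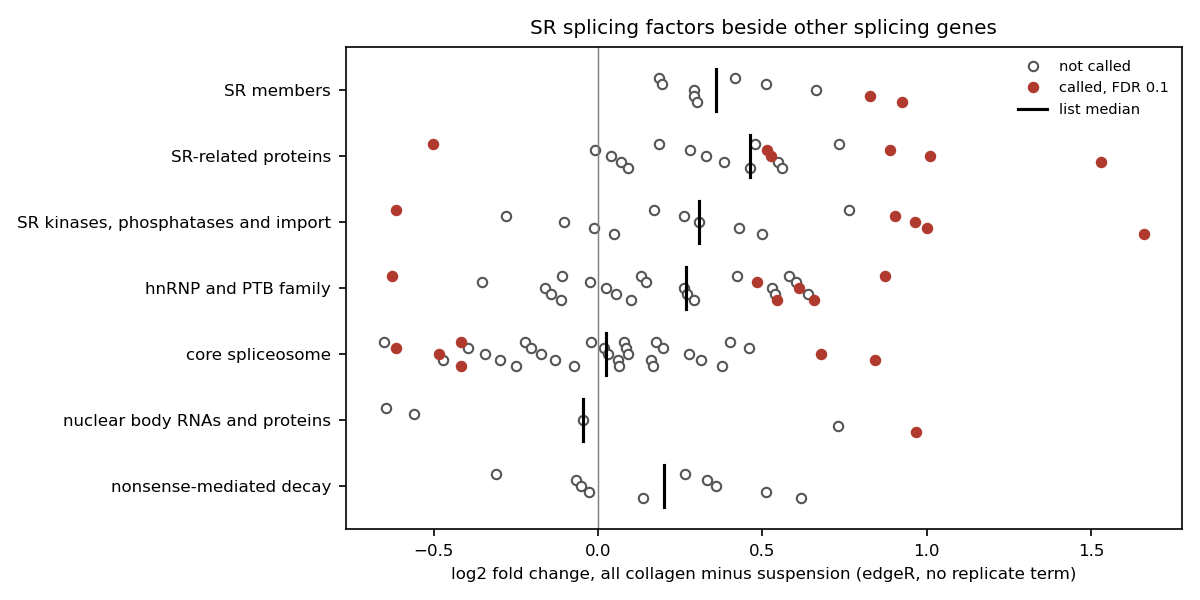
Log2 fold change of all collagen minus suspension for the 10 Srsf genes and for the tested genes of 6 other lists, with filled points for an FDR under 0.1 in edgeR and a bar at the median of each list. The Srsf genes are all to the right of 0 with a median of 0.36, and the core spliceosome is spread on both sides with a median of 0.02.

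Among 26 tested hnRNP and PTB genes, whose products often oppose SR proteins at exons, 5 were higher and 1 was lower in collagen (median log2 0.27), beside 7.73% and 12.3% of tested genes. Among those called, the largest changes were those of Hnrnpa1 (0.87, adjusted p = 0.075 in edgeR), Ptbp1 (0.66, 0.0255), Hnrnpll (0.61, 0.0886), and Hnrnpul1, which fell by 0.63 (0.017). Of 34 core spliceosome genes, 2 were higher and 4 lower (median 0.02), shares close to the 7.73% and 12.3% of all tested genes. Sf3b1, the branch site subunit of U2 snRNP, rose by 0.84 (adjusted p = 0.00688) and Cdc5l by 0.68 (0.0345), while Snrnp200 fell by 0.61 (0.0243) and Prpf19 fell by 0.49 (0.0851). Of 5 nuclear body RNAs and proteins, Sfpq was higher (0.97, adjusted p = 0.00389). The speckle RNA Malat1 (0.73, adjusted p = 0.455) and the paraspeckle RNA Neat1 (-0.64, 0.469) were not called. Of 10 genes of nonsense-mediated decay, 0 were called in either direction by edgeR and 0 with the block (median 0.20). With the block, the hnRNP list had 8 higher and 2 lower, the core spliceosome 2 higher and 7 lower, and the nuclear body list 1 higher and 1 lower. These stand beside 15.5% of all tested genes higher and 19.2% lower. At 4.4 mg/ml, the hnRNP list had 3 higher and 1 lower (9 and 2 with the block), the core spliceosome 2 higher and 0 lower (2 and 6 with the block), the nuclear body list 1 higher, and the decay list 0. Of all tested genes, 6.54% were higher and 8.3% lower at that density, and 15.7% and 16.1% with the block. Along the trend, 0 genes of these 4 lists were called without the block, beside 0.00722% of tested genes. With it, 1 nuclear body gene was called, beside 1.45% of tested genes.

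For each Srsf gene, the gene most like it was sought by the smallest root-mean-square difference of log2 CPM, centered on its own mean, over the 18 libraries. Only Srsf7 had another member, Srsf3, as its nearest gene (0.22), with 0 of all other tested genes nearer, and Eif4a1, an RNA helicase of translation initiation, was the nearest outside the family (0.25). The nearest genes were Acsl1 for Srsf6 (0.21), Zfp91 for Srsf11 (0.21), Zfp644 for Srsf10 (0.21), and Brap for Srsf9 (0.21). They were Mob1a for Srsf1 (0.14), Ythdf1 for Srsf2 (0.17), Fyn for Srsf3 (0.18), Dennd5a for Srsf4 (0.17), and Hnrnph1, an hnRNP, for Srsf5 (0.26). For comparison, the nearest member was Srsf2 for Srsf6 (0.35), with 178 genes nearer, and Srsf6 for Srsf11 (0.37), with 200 genes nearer. These distances describe the 18 libraries, which share batches, and carry no test.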

How the data were processed

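The authors deposited raw read counts, as whole numbers for each Ensembl gene ID, with no scaling. Per the labels and the study's methods, stranded mRNA libraries were sequenced as single-end 50-base reads, and the submitters' processing notes name STAR 2.7.0f and GRCm38. The study's methods name RSEM for TPM values, which were not used, and the tool that gave the counts is not given in the sources used here. Groups and replicate numbers were taken from the labels, and 0 columns were left unused.

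The 10 members, the other gene lists, and the tests were chosen with earlier results of these data known. All genes were fitted together in R 4.3.3 with edgeR 4.0.16 (filterByExpr, TMM, robust quasi-likelihood fit of 6 group means over 18 libraries, FDR 0.1, Benjamini-Hochberg over 13844 genes). SE was derived from the F statistic, 95% intervals are the estimate ± 1.96 SE, CPM used TMM-scaled library sizes, and log2 CPM a prior count of 2. The intervals use a normal quantile, so they are approximate and narrower than ones matched to the F-test. In these libraries 3 counts correspond to 0.094 to 0.256 CPM, which covers counting error only. The fit was also run on simulated counts drawn without a shared batch, so that run does not cover the batches of these libraries. Symbols and exons came from GENCODE for GRCm38, near copies from BLAST 2.17.0, coding sequences were read with Biopython 1.88, and upstream sequences came from RefSeq.

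The replicate numbers pair the libraries, since same-numbered libraries share a date and lane. Deviations from group means correlated at a mean r of 0.43 between same-numbered libraries (45 pairs) and -0.21 between others (90 pairs). The second value follows from the first, because the deviations are centered on means of 3 libraries, and is no separate measure of pairing. Alternatives were the replicate block, DESeq2 1.42.0 with and without it, DESeq2 size factors, no filter, GC and length offsets (loess span 0.5), FDR 0.05, and leaving out libraries. Omission of replicate 3 at 2.6 mg/ml was chosen after seeing the data. All members were named. From the other lists, up to 4 called genes with the largest changes in collagen against suspension were named, together with Scaf1 (chosen after its value was seen), Srrm1, Srrm2, Son, Malat1, Neat1, Srpk1, Srpk2, Clk1 to Clk4, and Dyrk3, and for each member the gene most like it.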

Additional observations from a re-analysis of the deposited data

Results flagged for a closer look

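Among the 6 suspension libraries, the level of Srsf10 in replicate 2 titled without CCL19, 31.0 CPM, stood apart from the others, which lay between 6.03 and 15.4 CPM. The gap to the next library was 0.626 of the whole range, just above Dixon's critical value of 0.625 for 6 samples. The 10 Srsf genes were examined in this way and chance marks about 1 in 20 groups. The other 9 genes had no such library.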

How the results depend on the processing

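With 3 replicates, the calls depended on whether the replicate entered the fit and on single replicates. For collagen against suspension, 2 Srsf genes were called, 4 with the replicate block, 5 with GC and length offsets and the block, 7 with DESeq2 and the block, and 1 to 2 without a replicate or library. At 2.6 mg/ml (2 called), the counts were 7 with the block, 4 with offsets and the block, 5 with DESeq2, 8 with DESeq2 and the block, 4 without the filter on low counts, and 0 to 4 when replicates or libraries were left out. At 3.5 mg/ml (2 called), they were 0 without the filter, 1 with GC and length offsets, 0 at an FDR of 0.05, and 0 to 2 when replicates or libraries were left out. At 4.4 mg/ml (3 called), they were 7 with the block, 7 with offsets and the block, 5 with DESeq2 size factors, 6 with DESeq2, 7 with DESeq2 and the block, and 0 to 5 when replicates or libraries were left out. The counts at 1.7 mg/ml, along the density trend, and between the suspension groups were 0 in each of the 13 other settings run. With the block, 15.5% of all tested genes were called higher in collagen against suspension, 11.9% at 2.6 mg/ml, and 15.7% at 4.4 mg/ml. For the other settings no share of all tested genes is set beside the counts. Calls over all tested genes shifted with the setting too, as given below, so these counts alone do not set the Srsf genes apart. The cause of these shifts was not tested.

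Among the 10 Srsf genes in collagen against suspension and at 4.4 mg/ml, signs turned in Srsf1 and Srsf9. At 1.7, 2.6, and 3.5 mg/ml this was examined for Srsf6 and Srsf11, along the trend also for Srsf7, and between the suspension groups for no single gene. For collagen against suspension, values without a replicate or library ran from -0.118 to 0.326 for Srsf1 and from -0.00898 to 0.562 for Srsf9. Srsf1 (0.19) was at -0.0799 with GC and length offsets, at -0.0932 with offsets and the block, and at -0.118 without replicate 3, and Srsf9 (0.19) was at -0.00898 without replicate 3. At 4.4 mg/ml, they ran from -0.282 to 0.217 for Srsf1 and from -0.211 to 0.379 for Srsf9. Srsf1 (-0.10) was at 0.217 without replicate 2 and at 0.115 without the 4.4 mg/ml library of replicate 2. Srsf9 (-0.04) was at 0.0291 with DESeq2 size factors, 0.0281 with DESeq2, 0.0677 with DESeq2 and the block, 0.379 without replicate 1, and 0.00025 without replicate 3 at 2.6 mg/ml. Among these values of single Srsf genes, 307 kept their direction and call under an alternative, 31 gained a call, 28 lost one, and 11 turned sign. Over all tested genes, collagen against suspension gave 2768 calls, 4808 with the block, 3414 with DESeq2, 5381 with DESeq2 and the block, and 632 without replicate 2.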
